A study of Homo sapiens with 8 samples.

Results

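The genes described here are 40 genes of DNA replication and mitosis, out of 31426 gene symbols on the arrays. They were listed by name, 18 for replication and 22 for mitosis. The 40 genes had 57 probes in all, and each of the 14 with more than 1 was represented by its brightest probe on average. Of the 40 genes, 38 were detected on all 8 arrays, at a detection p under 0.05 against the negative control beads. The exceptions were CDC6, detected on 2 arrays, and GINS1, detected on 4 arrays.

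A cell copies its DNA by loading the MCM helicase onto origins with CDC6 and CDT1, activating it with MCM10 and the GINS complex, and extending new strands with a sliding clamp, its loader and the replicative polymerases. It then divides by condensing its chromosomes, attaching them to spindle microtubules at kinetochores under the control of the cyclin B, PLK1 and Aurora kinases, and releasing them once the spindle checkpoint is satisfied. Replication transcripts peak around the G1 to S transition and depend on E2F factors, and mitosis transcripts peak in G2 and M and depend on the MuvB complex with MYBL2 and FOXM1, so that both groups follow how many cells are cycling.

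RNA was hybridized to Illumina HumanHT-12 v4 bead arrays from 2 human neuroblastoma cell lines, SH-SY5Y, labelled neuroblastic, and SH-EP2, labelled epithelial-like. Each line carried either a scrambled shRNA (control) or an shRNA against TRPM7, a channel protein with a kinase domain, with 2 arrays in each of the 4 groups. All cells had been stably transduced with a pLKO lentivirus and selected with puromycin, controls included, and 1 TRPM7 shRNA was used, so effects of its sequence on other transcripts cannot be told apart from those of TRPM7. It is not stated whether the replicates were separate cultures, so p-values measure only the spread between these arrays, which may be technical. In such bulk RNA, fewer cells in a cycle phase and less transcript per cell cannot be told apart.

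The TRPM7 probe itself stayed under the detection threshold throughout (detection p 0.0753 to 0.201 on the 8 arrays), so the knockdown could not be checked here. Median signals per array lay between 104.7 and 119.9 intensity units, and 40.8% to 44.2% of the 47322 probes were detected. Of 10 noradrenergic markers, 9 were detected on each SH-SY5Y array and 3 to 4 on each SH-EP2 array. All 10 mesenchymal markers were detected on each SH-EP2 array and 8 on each SH-SY5Y array. Among the 38 detected genes, the median SD between replicate arrays was 0.06 to 0.11 on the log2 scale.

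Promoters of the replication genes more often held E2F letters, and those of the mitosis genes more often held the letters of a cell cycle homology region (CHR), which is bound by MuvB complexes. RefSeq promoter sequences (GRCh38.p14) were matched for 34 of the 40 genes. The first 250 bases of a gene's first listed window were used, taken as those before the transcription start. Not matched were BIRC5, MCM4, MCM5, AURKA, TPX2 and TTK. Both strands were searched for E2F letters (TTTCCCGC, TTTGGCGC, TTTCGCGC or TTTGCCGC), for CHR letters (TTTGAA or TTCGAA) and for CCAAT, and none of these strings holds another. E2F letters stood in 8 of 16 replication promoters (50%) and in 1 of 18 mitosis promoters (5.56%), against 2.79% of 27305 promoters in the table. CHR letters stood in 2 of 16 replication promoters (12.5%) and in 9 of 18 mitosis promoters (50%), against 14.6% of all. CCAAT was found in 62.5% of the replication and 77.8% of the mitosis promoters, against 33% of all. In the wider lists described below, E2F letters were rarer in replication, in 6 of 35 matched promoters (17.1%), against 4 of 50 in mitosis (8%). CHR letters stood there in 0 of 35 replication and 25 of 50 mitosis promoters (50%).

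The windows of MCM2, GINS2, KIF23 and PRC1 are shown because their genes carry the knockdown results below. MCM2 (chr3:127598161-127598410, plus strand) and GINS2 (chr16:85688955-85689204, minus strand) fell in SH-SY5Y cells. KIF23 (chr15:69414099-69414348, plus strand) fell in SH-EP2 cells, as did PRC1 (chr15:90994536-90994785, minus strand), a mitosis gene outside the 40. Each is written 5′ to 3′ on the strand of its gene, with E2F, CHR and CCAAT letters in capitals.
MCM2: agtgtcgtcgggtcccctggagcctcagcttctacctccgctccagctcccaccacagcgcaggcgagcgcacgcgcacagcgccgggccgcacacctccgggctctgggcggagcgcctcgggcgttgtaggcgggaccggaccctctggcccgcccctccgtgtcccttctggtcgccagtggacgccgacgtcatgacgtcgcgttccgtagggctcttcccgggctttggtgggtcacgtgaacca
GINS2: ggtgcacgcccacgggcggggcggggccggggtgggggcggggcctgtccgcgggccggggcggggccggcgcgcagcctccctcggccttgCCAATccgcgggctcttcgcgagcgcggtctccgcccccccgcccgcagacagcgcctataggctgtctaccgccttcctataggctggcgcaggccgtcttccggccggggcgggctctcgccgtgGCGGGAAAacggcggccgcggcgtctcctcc
KIF23: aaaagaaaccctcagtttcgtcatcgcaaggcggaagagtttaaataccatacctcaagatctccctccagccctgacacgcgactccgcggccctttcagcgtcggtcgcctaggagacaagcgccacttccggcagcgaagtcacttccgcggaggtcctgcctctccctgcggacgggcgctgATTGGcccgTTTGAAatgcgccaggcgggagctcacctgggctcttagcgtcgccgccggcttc
PRC1: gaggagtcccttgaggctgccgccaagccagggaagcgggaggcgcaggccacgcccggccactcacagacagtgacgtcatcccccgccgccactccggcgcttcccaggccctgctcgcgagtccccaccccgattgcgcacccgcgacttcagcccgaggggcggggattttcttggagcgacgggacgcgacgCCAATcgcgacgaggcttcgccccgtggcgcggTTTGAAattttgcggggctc
The KIF23 window held CCAAT on the opposite strand, 64 to 60 bases before the start, and TTTGAA 55 to 50 bases before it. In the PRC1 window CCAAT lay 53 to 49 bases and TTTGAA 20 to 15 bases before the start. GINS2 held CCAAT at 158 to 154 bases and the E2F letters, read here as GCGGGAAA, at 31 to 24 bases. None of the 3 kinds of letters was found in the MCM2 window. These are matches of letters and not measured binding sites.

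The question of the first comparison was how TRPM7 shRNA left these genes in SH-SY5Y cells. Of the 40, 3 fell and 0 rose at an adjusted p under 0.05 in limma. Over all probes 2.12% were called, and of the 14577 probes detected on all 8 arrays 5.65%, with 3.73% lower. At an unadjusted p under 0.05 there were 3 genes in each direction, against 11.7% of the detected probes lower and 10.4% higher. The genes that fell were MCM2, GINS2 and BIRC5, by 1.28- to 1.47-fold. The median log2 difference (TRPM7 shRNA minus control) was 0.01 over the replication genes and 0.08 over the mitosis genes, against 0.01 over the detected probes. For 34 of the 40 genes the 95% interval of the difference lay within 1.5-fold of no change.

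MCM2, a subunit of the replicative helicase, had log2 signals of 8.99 and 9.21 on the control arrays and of 8.66 and 8.42 on the TRPM7 shRNA arrays. Both TRPM7 shRNA values lay below both control values, with a difference of -0.56 ± 0.12 (SE, n = 2 arrays per group, limma adjusted p = 0.0171). GINS2 is a subunit of the GINS complex, which travels with the helicase. Its log2 signals were 10.49 and 10.42 on control arrays and 10.07 and 10.12 on TRPM7 shRNA arrays. The arrays did not overlap, and the difference was -0.36 ± 0.09 (SE, limma adjusted p = 0.0403).

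BIRC5 encodes survivin, a subunit of the chromosomal passenger complex that is also known as an inhibitor of apoptosis. It gave log2 signals of 10.09 and 10.16 on control arrays and of 9.75 and 9.76 on TRPM7 shRNA arrays. These did not overlap, and the difference was -0.37 ± 0.09 (SE, limma adjusted p = 0.0316). A second BIRC5 probe gave a difference of -0.20 that did not pass (limma adjusted p = 0.789).

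No other subunit of the helicase passed. MCM6 read 10.96 and 10.93 on control arrays and 11.20 and 11.33 on TRPM7 shRNA arrays, a log2 difference of 0.32 in the other direction that just missed the threshold (limma adjusted p = 0.0508). Under 6 alternatives, the changes of background correction, median scaling and the detection filter among them, MCM6 passed as higher (limma adjusted p 0.0204 to 0.0470). The differences of MCM3, MCM4, MCM5 and MCM7 lay between -0.11 and 0.20, and none passed. The 4 clamp and polymerase genes (PCNA, RFC3, RFC4 and POLE2) had differences of -0.08 to 0.12. The 2 further RFC3 probes gave -0.32 and -1.43, and neither passed (limma adjusted p = 0.385 and 0.140). RRM1, RRM2 and TYMS, enzymes that supply deoxynucleotides, had differences of -0.09 to 0.13.

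The mitosis genes lay on both sides of 0 in SH-SY5Y cells, 15 above and 7 below. The cyclins CCNA2, CCNB1 and CCNB2 had log2 differences of -0.16 to 0.18, and the checkpoint and APC/C genes BUB1, BUB1B, TTK and CDC20 had differences of -0.22 to 0.20. The 5 centromere and kinetochore genes ranged from -0.12 to 0.19, and the kinesins KIF11, KIF20A and KIF23 from -0.09 to 0.22. AURKA, AURKB and TPX2 had differences of 0.10, 0.03 and 0.11, and TOP2A, which untangles DNA, had one of -0.11. None of these genes passed.

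The largest differences that did not pass were those of PLK1, CDC6 and MKI67. PLK1, a kinase that drives mitotic entry, read 5.34 and 4.73 on control arrays and 5.56 and 5.90 on TRPM7 shRNA arrays (log2 difference 0.70, limma adjusted p = 0.191). The groups did not overlap, but the control arrays differed by more than the gap between the groups. CDC6, which loads the helicase, read 3.64 and 2.99 against 2.79 and 2.89 and was detected on 1 of these 4 arrays (log2 difference -0.47, limma adjusted p = 0.810). MKI67, the gene of the Ki-67 proliferation antigen, read 4.0 and 4.65 on control arrays and 4.71 and 4.61 on TRPM7 shRNA arrays, and these overlapped (log2 difference 0.34, limma adjusted p = 0.810). Its signal was near background (123.5 to 145.2 units), and the alternatives gave a difference of 0.01 to 0.66.

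In SH-SY5Y cells the arrays of the 2 groups did not overlap for 20 of the 40 genes, 12 higher and 8 lower with TRPM7 shRNA, against 48.1% of the detected probes. The calls depended on the fit. With no intensity trend in the variance 0 of the 3 passed, under median scaling each missed the threshold (limma adjusted p 0.136 for MCM2) while MCM6 passed as higher, and MCM2 alone passed where SH-SY5Y was fitted by itself. MCM2 did not pass without control replicate 2 (limma adjusted p = 0.189) or without TRPM7 shRNA replicate 2 (0.191), and GINS2 (0.0627 to 0.197) and BIRC5 (0.0560 to 0.164) did not pass with any 1 of the 8 arrays left out.

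**Figure D1:**
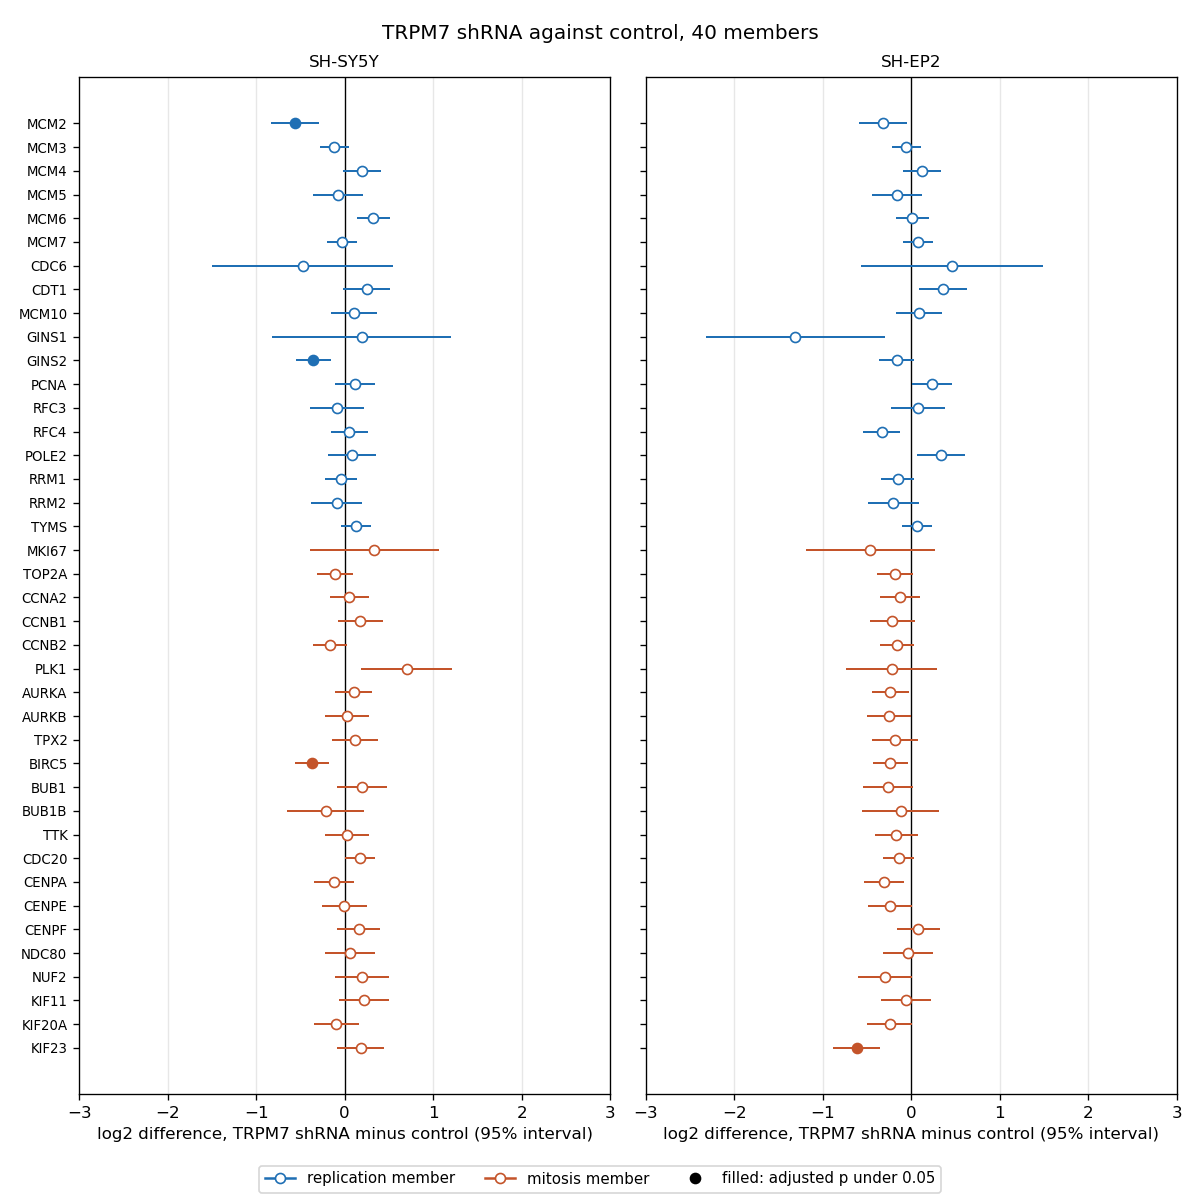
Log2 difference in signal, TRPM7 shRNA minus control, for the 40 genes in SH-SY5Y (left) and SH-EP2 (right), with 95% intervals from limma (2 arrays per group); blue points are replication genes, orange points mitosis genes, and filled points passed an adjusted p of 0.05. MCM2, GINS2 and BIRC5 are filled on the left and KIF23 on the right, where 21 of the 22 mitosis genes lie below 0.

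In SH-EP2 cells the mitosis genes lay lower with TRPM7 shRNA, by small amounts, and the replication genes lay on both sides of 0. Of the 22 mitosis genes, 21 had a log2 difference below 0 (median -0.22), the exception being CENPF at 0.08. Of the 18 replication genes, 8 lay below 0 (median 0.04). Dimmer probes of MCM7, MCM10, PCNA and RFC3, detected on all 8 arrays, lay below 0 (-0.22, -0.22, -0.04 and -0.42) where the chosen probes lay above. A second KIF11 probe lay at 0.04 where the chosen one lay at -0.05. Over the mean of each gene's probes, 9 of the 18 replication genes (median -0.03) and 20 of the 22 mitosis genes (median -0.18) lay below 0. Over the detected probes 47.2% lay below 0, with a median of 0.02. Only KIF23 fell at an adjusted p under 0.05, 1 of the 40 genes, where 3.03% of all probes and 7.82% of the detected probes were called, 4.05% of the detected probes as lower. At an unadjusted p under 0.05, 7 mitosis genes were lower and 0 higher, against 12% of the detected probes lower and 13.4% higher. For 32 of the 40 genes the 95% interval lay within 1.5-fold of no change.

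KIF23, also called MKLP1, is a kinesin of the central spindle that is needed for cytokinesis. Its log2 signals in SH-EP2 cells were 9.10 and 8.98 on the control arrays and 8.38 and 8.47 on the TRPM7 shRNA arrays. The groups did not overlap, with a difference of -0.62 ± 0.12 (SE, n = 2 arrays per group, limma adjusted p = 0.00484). A second KIF23 probe gave -0.52 and did not pass (limma adjusted p = 0.505), and the mean of both gave -0.57 (limma adjusted p = 0.111). The call was also lost without control replicate 1 (limma adjusted p = 0.0968), without TRPM7 shRNA replicate 1 (0.0844) and with no intensity trend (0.277).

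For 17 of the 22 mitosis genes both TRPM7 shRNA arrays lay below both control arrays, and for 0 genes above them, where 26.8% of the detected probes lay below. Of the 18 replication genes, 7 lay below and 6 above in this way (72.2% apart, against 58% of the detected probes). The 5 mitotic kinases and cofactors had differences of -0.25 to -0.18. AURKA, the kinase of the spindle poles, read 10.22 and 10.07 on control arrays and 9.86 and 9.96 on TRPM7 shRNA arrays (log2 difference -0.23, limma adjusted p = 0.259). AURKB, the kinase of the chromosomal passenger complex, read 9.01 and 8.80 against 8.63 and 8.67 (-0.25, limma adjusted p = 0.349). Neither kinase overlapped between the groups, and neither passed.

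The checkpoint genes BUB1, BUB1B and TTK and the APC/C activator CDC20 had log2 differences of -0.26 to -0.12. The cyclins CCNA2, CCNB1 and CCNB2 had differences of -0.21 to -0.12. Among the centromere and kinetochore genes, CENPA, the histone variant that marks centromeres, read 8.98 and 9.01 on control arrays and 8.67 and 8.69 on TRPM7 shRNA arrays. Its groups did not overlap, and the difference of -0.31 did not pass (limma adjusted p = 0.133). A second, dimmer CENPA probe gave -0.66 and passed (limma adjusted p = 0.0096). The other 4 genes of that group (CENPE, CENPF, NDC80 and NUF2) ranged from -0.29 to 0.08. KIF11 and KIF20A, the other kinesins, lay at -0.05 and -0.24, and TOP2A at -0.18.

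The largest differences in SH-EP2 cells that did not pass were those of GINS1, MKI67 and CDC6. GINS1 read 3.61 and 4.16 on control arrays and 2.80 and 2.35 on TRPM7 shRNA arrays (log2 difference -1.31, limma adjusted p = 0.195). It was detected on both control arrays and on neither TRPM7 shRNA array, so its lower level is only a bound. MKI67 read 4.50 and 4.68 against 3.88 and 4.38 (log2 difference -0.46, limma adjusted p = 0.669), and CDC6 read 2.80 and 3.03 against 2.99 and 3.75 (0.46, limma adjusted p = 0.798). MKI67 was near background, at 131.8 to 138.5 units on arrays with medians of 114.0 to 119.9. The alternatives gave it a difference of -0.72 to -0.07. CDC6 overlapped between the groups and was detected on 1 of the 4 arrays.

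Replication genes lay on both sides in SH-EP2 cells. RFC4, a subunit of the clamp loader, read 9.76 and 9.87 on control arrays and 9.52 and 9.45 on TRPM7 shRNA arrays (log2 difference -0.33, limma adjusted p = 0.0694). On the other side, CDT1, which loads the helicase with CDC6, read 7.93 and 7.94 on control arrays and 8.31 and 8.28 on TRPM7 shRNA arrays (0.36, limma adjusted p = 0.152). POLE2, a subunit of DNA polymerase epsilon, read 7.26 and 7.32 against 7.62 and 7.63 (0.34, limma adjusted p = 0.215). None of these 3 genes overlapped between the groups or passed the test. The 6 helicase subunits ranged from -0.32 to 0.13, PCNA and RFC3 lay at 0.23 and 0.08, and the genes of nucleotide supply ranged from -0.20 to 0.07.

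The genes that fell in SH-SY5Y cells lay below control in SH-EP2 cells too. MCM2 read 8.32 and 8.40 on SH-EP2 control arrays and 8.07 and 8.03 on SH-EP2 TRPM7 shRNA arrays (log2 difference -0.32, limma adjusted p = 0.244). GINS2 read 9.71 on both control arrays and 9.49 and 9.60 on TRPM7 shRNA arrays (-0.16, limma adjusted p = 0.487). BIRC5 read 9.87 on both control arrays and 9.60 and 9.67 on TRPM7 shRNA arrays (-0.23, limma adjusted p = 0.224). None of the 3 overlapped, none passed in SH-EP2 cells, and none passed the test of the difference between the lines (limma adjusted p 0.703, 0.664 and 0.793).

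**Figure D2:**
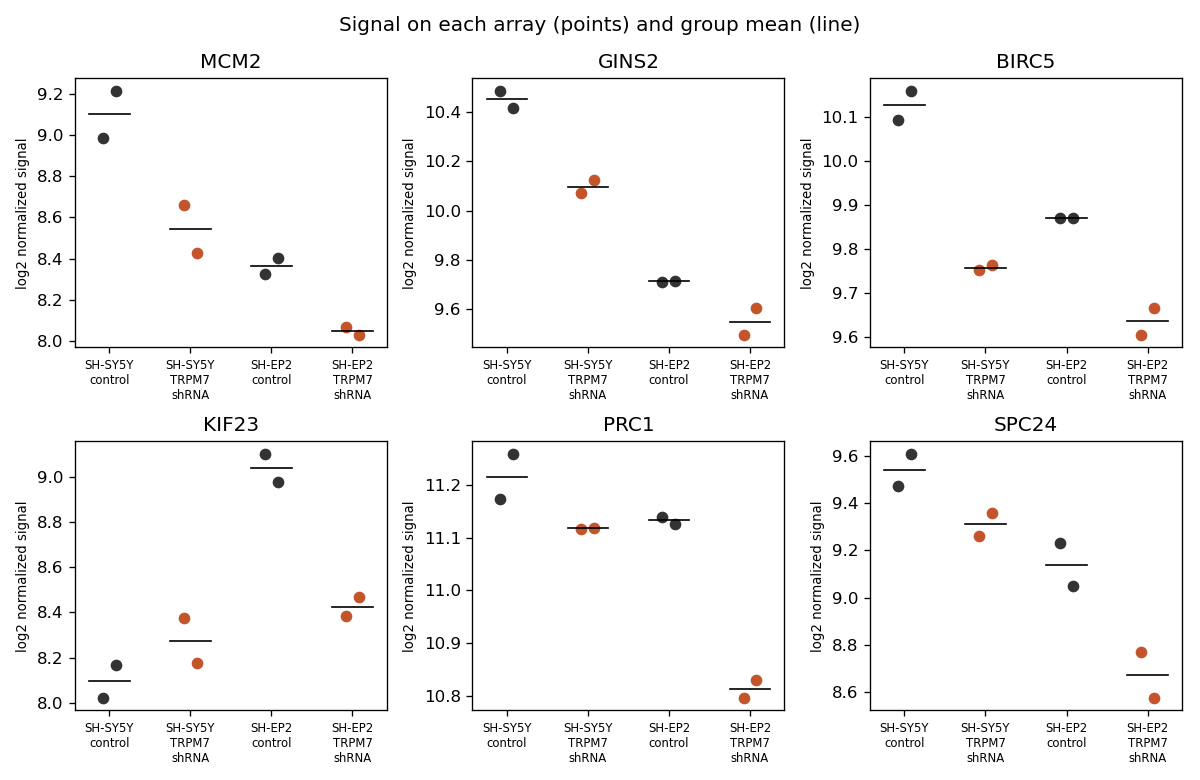
Log2 normalized signal on each array (points) with the mean of each group (line) for MCM2, GINS2, BIRC5 and KIF23 and for the mitosis genes PRC1 and SPC24; control arrays are black, TRPM7 shRNA arrays orange, and each panel has its own axis, which does not start at 0. KIF23 stood at 8.98 to 9.10 on the SH-EP2 control arrays and at 8.38 to 8.47 on the SH-EP2 TRPM7 shRNA arrays.

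A wider set of genes with the same roles, which excludes the 40, was counted in the same fit. Of 60 other mitosis genes, 52 lay below 0 in SH-EP2 cells with TRPM7 shRNA (median -0.18). At an unadjusted p under 0.05, 20 were lower and 0 higher, against 12% and 13.4% of the detected probes. At an adjusted p under 0.05, 3 fell, against 4.05% of the detected probes. Of 42 other replication genes, 21 lay below 0 (median 0.00) and 1 fell. Across 18 settings of processing and left-out arrays, the main one included, the median of the 22 mitosis genes stayed between -0.22 and -0.16. Of these genes 20 to 21 lay below 0, and 49 to 54 of the 60 other mitosis genes did. The detection filter, the intensity trend and the replicate block cannot change a gene's fitted difference here. Leaving out an SH-SY5Y array changes the SH-EP2 differences only through the normalization. The 22 and the 60 come from the same arrays and many of them share regulators, so their genes are not independent.

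The 3 other mitosis genes that fell were PRC1, SPC24 and BUB3. PRC1, which bundles microtubules of the central spindle and works there with KIF23, read 11.14 and 11.13 on control arrays and 10.80 and 10.83 on TRPM7 shRNA arrays (log2 difference -0.32, limma adjusted p = 0.0206). SPC24, a subunit of the NDC80 complex, read 9.23 and 9.05 against 8.77 and 8.57 (-0.47, limma adjusted p = 0.0217). BUB3, a checkpoint protein, read 12.03 and 12.07 against 11.78 and 11.75 (-0.28, limma adjusted p = 0.0208). Over the mean of its probes BUB3 gave -0.16 and did not pass (limma adjusted p = 0.712).

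None of the 3 overlapped between the groups. POLD2, a subunit of DNA polymerase delta and the 1 other replication gene that fell, read 10.73 and 10.53 on control arrays and 10.20 and 10.31 on TRPM7 shRNA arrays (log2 difference -0.37, limma adjusted p = 0.0444). PRC1 (limma adjusted p 0.134 to 0.206), BUB3 (0.116 to 0.193) and POLD2 (0.0660 to 0.406) did not pass when any 1 of the 4 SH-EP2 arrays was left out. SPC24 passed without TRPM7 shRNA replicate 1 (0.0463) but not without any other SH-EP2 array (0.0515 to 0.298).

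In SH-SY5Y cells, 0 of the 60 other mitosis genes passed in limma (median 0.05), where 5.65% of the detected probes were called. At an unadjusted p under 0.05, 6 were higher and 2 lower, against 10.4% and 11.7% of the detected probes. Of the 42 other replication genes 1 rose. This was RPA1, a subunit of the protein that coats single-stranded DNA, which read 10.26 and 10.31 on control arrays and 10.57 and 10.70 on TRPM7 shRNA arrays. The arrays did not overlap (log2 difference 0.35, limma adjusted p = 0.0321). The call held without TRPM7 shRNA replicate 1 (0.0464), and leaving out any other array gave 0.0505 to 0.242.

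**Figure D3:**
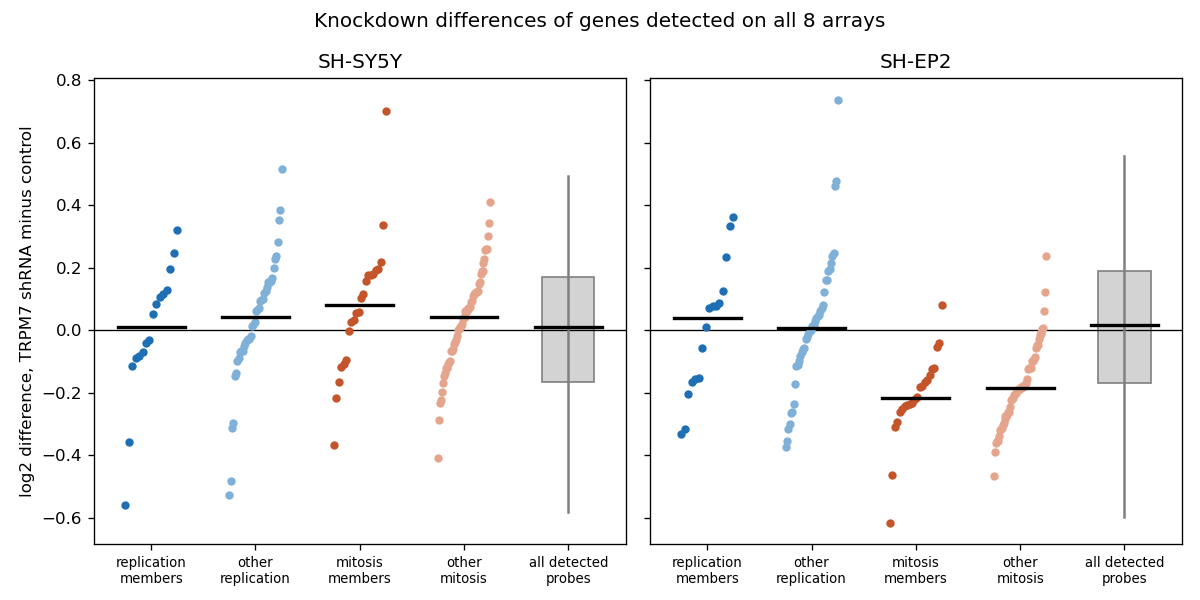
Log2 difference, TRPM7 shRNA minus control, of each gene detected on all 8 arrays (points) in 4 lists with the median of each list (line), beside all 14577 detected probes (box, 25th to 75th percentile; whiskers, 5th to 95th percentile; line, median). In SH-EP2 (right) the medians of both mitosis lists lie near -0.2, and those of both replication lists near 0, while in SH-SY5Y (left) all 4 medians lie between 0 and 0.1.

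The next comparison asked whether the response to TRPM7 shRNA differed between the lines, as an interaction term (SH-EP2 difference minus SH-SY5Y difference). KIF23 was the 1 of 40 genes that passed, with an interaction of -0.80 ± 0.17 on the log2 scale (SE, limma adjusted p = 0.0181), where 1.42% of all probes and 3.48% of the detected probes were called. In SH-SY5Y cells KIF23 read 8.02 and 8.17 on control arrays and 8.38 and 8.17 on TRPM7 shRNA arrays, a difference of 0.18 (limma adjusted p = 0.647). Its values in SH-EP2 cells are given above. The interaction of KIF23 did not pass over the mean of its probes (limma adjusted p = 0.318), with no intensity trend (0.404), or when 1 array was left out (0.0505 to 0.120), except for SH-SY5Y control replicate 2 and SH-SY5Y TRPM7 shRNA replicate 2 (0.0204 and 0.0151).

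Of the 22 mitosis genes, 19 had an interaction below 0 (median -0.26, against 0.02 over the detected probes), and at an unadjusted p under 0.05, 7 were below 0 and 0 above, where 8.67% of the detected probes were below. The replication genes had a median of 0.02, with 9 on each side. A further RFC3 probe, detected on 5 arrays, passed in the interaction at 2.61 (limma adjusted p = 0.0456). The chosen RFC3 probe lay at 0.16 and did not pass. The largest interactions that did not pass were those of GINS1 (-1.50, limma adjusted p = 0.445), CDC6 (0.93, limma adjusted p = 0.710) and PLK1 (-0.92, limma adjusted p = 0.286). PLK1 read 6.26 and 6.34 on SH-EP2 control arrays and 6.21 and 5.95 on SH-EP2 TRPM7 shRNA arrays, so that its arrays lay apart in opposite directions in the 2 lines.

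Far more genes were called between the lines than in either knockdown, as was also so over all probes. On the control arrays, 24 of the 40 genes were lower in SH-EP2 than in SH-SY5Y at an adjusted p under 0.05 and 2 were higher. Of all probes 26.2% were called, and of the detected probes 60.1%, with 32.8% lower and 27.4% higher in SH-EP2. The difference was wider in replication, where 14 of 18 genes were lower and 0 higher (median log2 difference -0.74), than in mitosis, where 10 of 22 were lower and 2 higher (median -0.23). The detected probes had a median of -0.07. The mitosis median was close to that of the SH-EP2 knockdown (-0.22), with 13 against 21 of the 22 genes below 0. With no intensity trend in the variance, 15 of the 40 genes were called in place of 26. The study's methods give the lines different growth media and the array labels a single one, so effects of line and medium cannot be told apart here.

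MCM10, which helps to activate the helicase, showed the largest difference among the 40. It read 10.12 and 9.88 on SH-SY5Y control arrays and 7.98 and 8.01 on SH-EP2 control arrays. It was 4.01-fold lower in SH-EP2 with no overlap (log2 difference -2.00 ± 0.12, SE, limma adjusted p = 3.7e-11), and a second probe gave -1.99. POLE2 read 8.46 and 8.61 in SH-SY5Y and 7.26 and 7.32 in SH-EP2 (-1.25, limma adjusted p = 9.69e-08). Both POLE2 values in SH-EP2 lay below both values in SH-SY5Y.

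NUF2, a kinetochore protein of the NDC80 complex, read 8.76 and 8.59 in SH-SY5Y and 7.75 and 7.35 in SH-EP2 (log2 difference -1.13, limma adjusted p = 1.82e-06). MCM3 read 12.13 and 12.17 in SH-SY5Y and 11.01 and 11.06 in SH-EP2 (-1.12, limma adjusted p = 1.8e-10). Neither gene overlapped between the lines. PCNA, the sliding clamp, was lower by a similar amount, with 11.43 and 11.22 in SH-SY5Y and 10.29 and 10.20 in SH-EP2 (-1.08, limma adjusted p = 4.81e-08).

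Within the helicase, MCM7 lay at -1.07 and MCM2 at -0.74, MCM6 at -0.48, and MCM4 and MCM5, which did not pass, at -0.24 and -0.04. A second, dimmer MCM4 probe, detected on all 8 arrays, gave -1.09 and passed (limma adjusted p = 2.61e-06). All 4 clamp and polymerase genes were lower in SH-EP2, between -1.25 and -0.34. So were the 3 genes of nucleotide supply, between -0.78 and -0.29. Of the 5 centromere and kinetochore genes 4 were lower, CENPF the most after NUF2 at -0.99, and CENPE did not pass (-0.20, limma adjusted p = 0.251). The wider lists ran the same way, with 27 lower and 5 higher of 42 other replication genes (median -0.60) and 30 lower and 11 higher of 60 other mitosis genes (median -0.38).

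PLK1 and KIF23 ran the other way. PLK1 was 2.41-fold higher on the SH-EP2 control arrays, at 6.26 and 6.34 against 5.34 and 4.73 (log2 difference 1.27 ± 0.24, SE, limma adjusted p = 0.000279). Its SH-SY5Y control signals were near background, at 155.3 and 124.6 units, where the medians over all probes were 111.5 and 104.7. Across the alternatives the PLK1 difference ranged from 0.39 to 1.58. KIF23 was 1.93-fold higher, at 9.10 and 8.98 against 8.02 and 8.17 (0.95 ± 0.12, SE, limma adjusted p = 2.56e-06). Neither gene overlapped between the lines. A second KIF23 probe gave 0.44 and did not pass (limma adjusted p = 0.347). The largest differences that did not pass were those of GINS1 (0.84, limma adjusted p = 0.250), BUB1B (-0.53, limma adjusted p = 0.0631) and CDC6 (-0.40, limma adjusted p = 0.654).

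On the TRPM7 shRNA arrays 25 of the 40 genes were lower in SH-EP2 and 0 were higher, 15 of 18 in replication (median -0.72) and 10 of 22 in mitosis (median -0.43), where 26.1% of all probes and 59.3% of the detected probes were called, 31.9% of the detected probes as lower. At an unadjusted p under 0.05, 28 genes were lower and 0 higher, against 36.5% of the detected probes lower. MCM10 again showed the largest difference (log2 difference -2.02, limma adjusted p = 3.21e-11), followed by NUF2 (-1.62, limma adjusted p = 1.15e-08). PLK1 and KIF23 no longer passed, at 0.35 (limma adjusted p = 0.372) and 0.15 (limma adjusted p = 0.468). For KIF23 this is the interaction given above seen from the other side, since these values share their arrays.

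**Figure D4:**
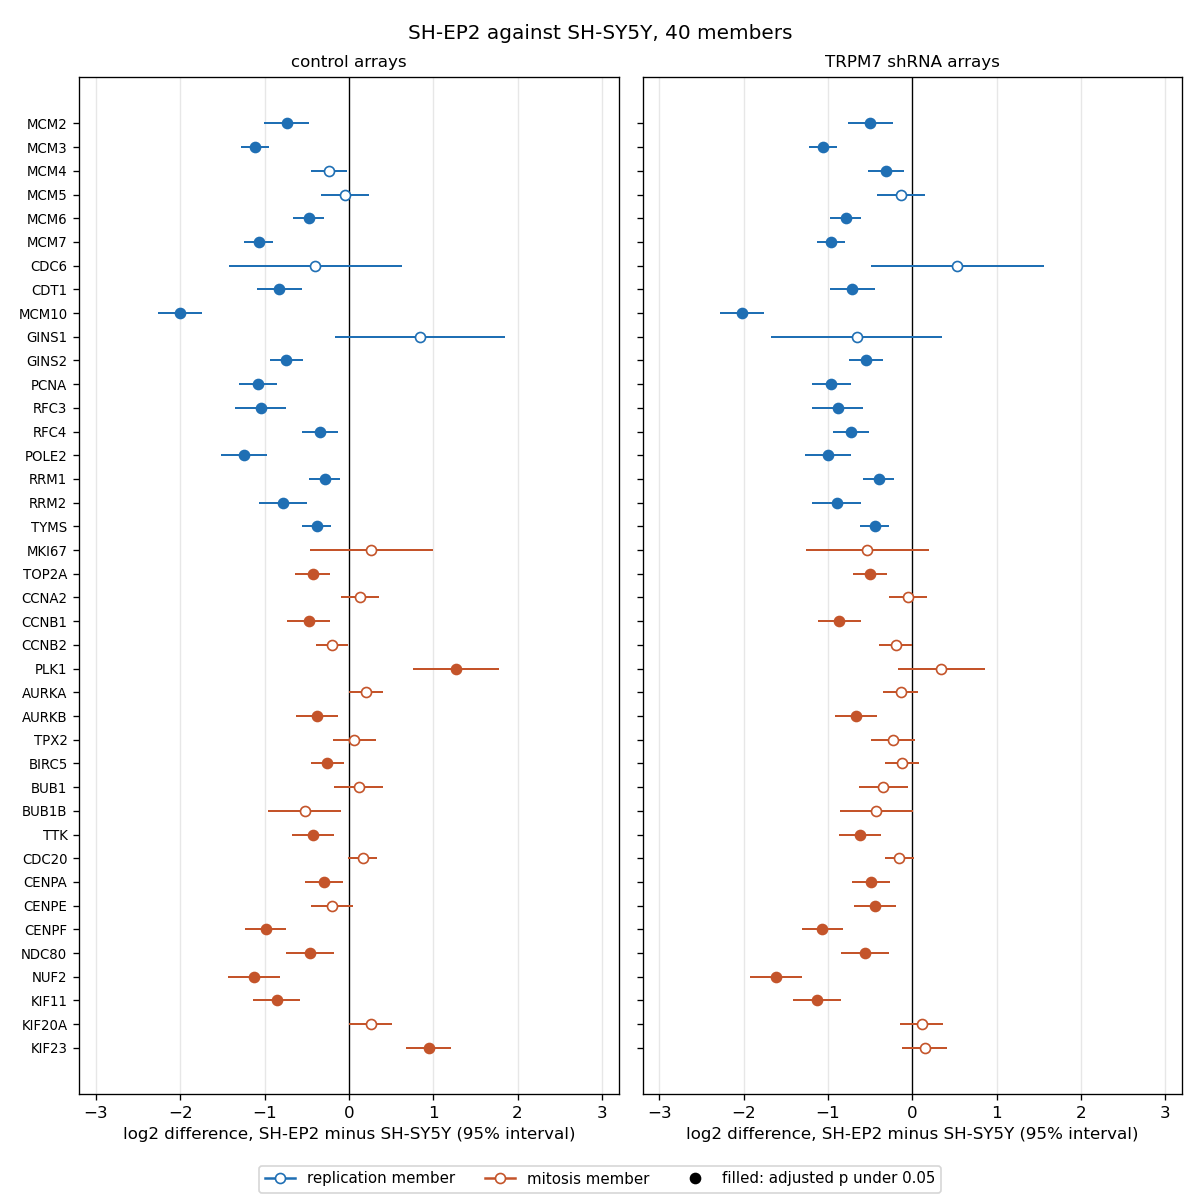
Log2 difference in signal, SH-EP2 minus SH-SY5Y, for the 40 genes on the control arrays (left) and the TRPM7 shRNA arrays (right), with 95% intervals from limma (2 arrays per group); blue points are replication genes, orange points mitosis genes, and filled points passed an adjusted p of 0.05. MCM10 lies at -2.00 and -2.02, and PLK1 and KIF23 are filled above 0 on the left and open on the right.

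Regulators of the 2 gene programmes were read as context, and of 22 none passed in either knockdown comparison in limma. At an unadjusted p under 0.05, 1 was lower and 0 higher in SH-SY5Y, against 11.7% and 10.4% of the detected probes. In SH-EP2, 2 were lower and 1 higher, against 12% and 13.4%. E2F2, an activator of replication genes, read 9.93 and 9.97 on SH-SY5Y control arrays and 7.86 and 7.85 on SH-EP2 control arrays. It was lower in SH-EP2 with no overlap (log2 difference -2.10, limma adjusted p = 1.52e-12). The 22 regulators as a list did not run 1 way between the control arrays, with 10 below 0 (median 0.09). At an adjusted p under 0.05, 8 were lower and 3 higher in SH-EP2, against 32.8% and 27.4% of the detected probes. E2F1 passed in the interaction (1.59 ± 0.38, SE, limma adjusted p = 0.0396), but not under median scaling (0.114) or with no intensity trend (0.386). With no background correction the E2F1 interaction was 0.49. E2F1 read 6.24 and 6.45 on control and 5.21 and 5.96 on TRPM7 shRNA arrays of SH-SY5Y. In SH-EP2 it read 4.76 and 5.43 on control and 5.90 and 5.95 on TRPM7 shRNA arrays.

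The E2F1 arrays lay lower with TRPM7 shRNA in SH-SY5Y and higher in SH-EP2, while neither difference passed by itself (limma adjusted p = 0.210 and 0.125). The repressors E2F7 and E2F8 did not pass either (-0.18 and 1.06 in SH-SY5Y, -0.09 and -0.20 in SH-EP2, with E2F8 detected on 4 arrays). MYBL2, the partner of MuvB, read 4.27 and 4.83 on SH-EP2 control arrays and 3.31 and 3.72 on SH-EP2 TRPM7 shRNA arrays (log2 difference -1.03, limma adjusted p = 0.162). Its signal was near background, as the lowest detected log2 signals on SH-EP2 arrays were 3.15 to 3.23. The size of the MYBL2 difference is therefore uncertain. FOXM1 read 8.22 and 8.18 against 7.98 and 7.96 in the same comparison (-0.23, limma adjusted p = 0.526). MYCN, an oncogene of neuroblastoma, was detected on the 4 SH-SY5Y arrays only, at 7.06 and 7.12 on control and 6.32 and 6.62 on TRPM7 shRNA arrays (-0.62, limma adjusted p = 0.502).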

How the data were processed

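The authors extracted bead signal intensities with GenomeStudio v2011.1 and deposited them without normalization for 47322 probes, with a detection p-value for each probe and array made by the authors in the same software. For their own analysis they used Robust Multi-Array normalization (Arraystar) and Multi Experiment Viewer, whose test is not given in the sources used here. Here the RMA background model was applied to the deposited intensities, all 8 arrays were quantile normalized together, and log2 was taken. Groups followed the labels. The 4 groups entered 1 linear model per probe in limma 3.58.1 (R 4.3.3), with trended empirical Bayes variances, two-sided tests and Benjamini-Hochberg adjustment over all probes, after the procedure was tested on simulated data. The intensity trend lets the prior variance follow the signal level. Contrasts were TRPM7 shRNA against control in each line, their interaction, and SH-EP2 against SH-SY5Y on the control arrays and, added after the data had been seen, on the TRPM7 shRNA arrays.

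A gene was read by its probe of highest mean. Of 17 further probes of the 40 genes, 13 were detected on all 8 arrays, and of these 3 in SH-SY5Y and 5 in SH-EP2 gave a knockdown difference of the opposite sign. Symbols are those of the deposited table, and 7 genes of the lists were matched by an older symbol. Named in full were genes at an adjusted p under 0.05 (at most the 4 largest rises and falls), the 3 largest differences that did not pass, called genes of the wider lists, and TRPM7, MYCN and 6 regulators. Further genes are given to complete their group and were chosen with their values in view. Members, lists and rules were chosen with earlier results of these data known, so no list was tested.

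Alternatives were neqc (offset 16), normexp (offset 50) or no background correction, median scaling, a filter to probes detected on at least 2 arrays, no intensity trend, each line alone, a replicate block, the mean over a gene's probes, each array left out and, added after the data had been seen, a block with crossed numbers. With 2 arrays per group, the number of arrays limits the precision.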

Additional observations from a re-analysis of the deposited data

Results flagged for a closer look

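KIF23, the kinesin of the central spindle, passed the test of a different response to TRPM7 shRNA in the 2 lines, but the call depended on the processing. Its interaction (SH-EP2 difference minus SH-SY5Y difference) was -0.80 on the log2 scale (limma adjusted p = 0.0181), from -0.62 in SH-EP2 cells and 0.18 in SH-SY5Y cells. The call was lost over the mean of its probes (limma adjusted p = 0.318), with no intensity trend (0.404) and with a replicate block (0.0519). It was also lost without some of the arrays, with interactions of -0.91 to -0.70 over the left-out arrays. E2F1, a regulator outside the 40 genes, differed between the lines in the opposite sense by the same test. Its interaction was 1.59 (limma adjusted p = 0.0396), from 0.83 in SH-EP2 cells and -0.76 in SH-SY5Y cells. The call was lost without some of the arrays, with interactions of 1.21 to 1.97 over the left-out arrays. The size depended on the background correction, at 1.11 with neqc, 0.76 with normexp and 0.49 with none. E2F1 did not pass under median scaling (limma adjusted p = 0.114), with no intensity trend (0.386) or over the mean of each gene's probes (0.0839).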

How the results depend on the processing

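None of the 32 gene differences recomputed under the settings that apply to them changed sign. They were called or large differences, chosen with their values in view, and some settings cannot change a fitted difference. With 2 arrays per group most knockdown calls were near the threshold. Signs of small differences did change: in SH-SY5Y 3 to 10 of the 22 mitosis genes and 4 to 11 of the 18 replication genes lay below 0, depending on the setting (7 and 9 as reported). With no intensity trend, 0 members were called in either knockdown comparison or in the interaction, 15 of the 40 were called between the control arrays of the lines (26 with the trend), and 0 genes of the wider lists were called in the knockdowns. The cause of this loss was not tested. In SH-EP2 the count of 1 member became 2 with neqc, with normexp and with no background correction, 3 with only probes detected on at least 2 arrays and 3 with the line fitted alone. In SH-SY5Y the count of 3 became 4 with neqc, with normexp, with no background correction, with the detection filter and with crossed numbers, MCM6 being added as higher. It became 1 under median scaling, where MCM6 was called as higher and MCM2, GINS2 and BIRC5 were lost, and 1 (MCM2) with the line alone. Leaving out single arrays gave 0 to 1 members in SH-SY5Y, 0 to 2 in SH-EP2, 0 to 1 in the interaction and 20 to 27 between the control arrays. Over the mean of a gene's probes 0 passed in the interaction.

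The median over the 40 genes moved under median scaling to 0.19 in the SH-SY5Y knockdown (from 0.06), to -0.25 in the interaction (from -0.11) and to -0.70 between the TRPM7 shRNA arrays of the lines (from -0.52). The same scaling moved the median of all detected probes from 0.01 to 0.15 in the SH-SY5Y knockdown, from 0.02 to -0.12 in the interaction and from -0.04 to -0.23 between the TRPM7 shRNA arrays. With no background correction the median was -0.31 between the control arrays (from -0.39) and -0.41 between the TRPM7 shRNA arrays, where normexp gave -0.44.

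Of the 60 other mitosis genes, 3 were called in SH-EP2, 1 under median scaling, 5 with the line alone and 0 to 3 with single arrays left out. Of the 42 other replication genes, 1 was called in SH-EP2, 0 under median scaling or over mean probes, 2 with the detection filter, 2 with the line alone and 0 to 1 with single arrays left out. In SH-SY5Y, 1 of the 42 was called, 3 with neqc, 3 with normexp, 4 with no background correction, 2 with the detection filter, 0 over mean probes and 0 to 1 with single arrays left out.

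The labels number the replicates in each group, but same-numbered arrays share only a number. Their deviations correlated at -0.11 in SH-SY5Y and -0.0044 in SH-EP2 over 14577 detected probes. With a replicate block, 1 member was called in SH-SY5Y and 0 in the interaction, with 1 of the other mitosis genes and 0 of the other replication genes in SH-EP2 and 0 of the other replication genes in SH-SY5Y. With crossed numbers in SH-SY5Y, 4 of the other replication genes were called there. Probes near background, such as CDC6, GINS1 and MKI67, give no reading of small changes. The size of the PLK1 differences depended on the processing, with 0.19 to 1.01 in the SH-SY5Y knockdown.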

Other observations

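Grouped by promoter letters instead of by role, the 9 members with E2F letters had a median log2 difference of -0.82 between the control arrays of the lines (SH-EP2 minus SH-SY5Y), against -0.38 for the 25 matched members without them. In the SH-EP2 knockdown the same groups had medians of 0.07 and -0.20. The 11 members with CHR letters had medians of -0.29 between the lines and -0.16 in the SH-EP2 knockdown, against -0.74 and -0.12 for the 23 without. These groups overlap largely with the replication and mitosis lists, and no test was made.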
